A study of Caenorhabditis elegans with 2 samples.

Results

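The cuticle collagen genes of Caenorhabditis elegans outside the annular furrow group were examined for binding of BLMP-1 in embryos. They were defined by gene symbol, with no measured value in the rule: protein-coding genes named col with a number, together with dpy-4, dpy-5, dpy-13, dpy-14, dpy-17, rol-6, rol-8, sqt-1, sqt-2, sqt-3, bli-1, bli-2, bli-6 and lon-3. The rule gave 170 of 19985 protein-coding genes, of which 156 were numbered col genes and 14 were named for a mutant phenotype. The genes were short, with a median body of 1209 bp (from 521 to 9946 bp), against 2026 bp over all protein-coding genes, and 156 of them had a coding length of 750 to 1200 bp. They lay on all 6 nuclear chromosomes, with 44 on IV, 33 on V, 30 on II, 27 on X, 23 on I and 13 on III.

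The data are ChIP-seq peak lists of eGFP-tagged BLMP-1 from whole embryos of mixed stage and mixed sex, in 1 group of 2 biological replicates. The strain, OP109, carries the insertion wgIs109 with the tagged blmp-1 gene in an unc-119(ed3) III background, and the sequences that drive the tagged gene are not given in the sources used here. Fragments ranged from 150 to 350 bp. A possible control experiment is listed for the series and was not analysed here, so the group has no second condition to set against it, and the peaks of the collagen genes were set beside those of all protein-coding genes.

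Cuticle collagens are short secreted proteins built around Gly-X-Y repeats. The epidermis hydroxylates, folds, trims and secretes them, and they are then cross-linked into the cuticle, which is first laid down late in embryogenesis and is remade at each molt. The zinc finger protein BLMP-1, homologous to vertebrate PRDM1 (Blimp-1), is a transcription factor known in C. elegans for roles in the epidermis, in developmental timing and in the molting cycle. In whole embryos, strong binding in a few cells and weak binding in many cells cannot be told apart.

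The IDR list (irreproducible discovery rate, a measure of how alike replicates rank their peaks) was the authors' optimal one and held 843 peaks. These were the 843 strongest regions of their pooled list, so a place in it followed pooled strength. A single IDR peak could be weak or absent in 1 replicate. The gene doxa-1, described below, had an IDR peak of rank 252 and no candidate in replicate 1. The pooled list and the list of each replicate held 30000 candidate regions apiece, down to very weak ones. Strength is the authors' signal value, a score with no stated scale. In the pooled list it was 46.1 at the weakest IDR peak, 65.5 at the median IDR peak and 16.2 at the median candidate. Ranks within a list, with 1 the strongest, are therefore used here. A gene counted as reached when a summit lay between 2000 bp upstream and 500 bp downstream of its start or in its body, and positions below are in bp from the gene's start, negative upstream. The lists hold no read counts, so the depth is unknown, and the 95% intervals (exact, Clopper-Pearson) cover counting error only. Genes are not replicates, and neighbouring genes can share a region.

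Few of the collagen genes held a peak of the IDR list. An IDR summit reached 3 of the 170, which is 1.76% (interval 0.365 to 5.07%), against 4.25% of all protein-coding genes (849 of 19985). The 3 genes were col-46, col-47 and col-88, and only 2 summits lay behind them because col-46 and col-47 share one. At 3 further lengths of the pooled list the collagen genes were also below all genes. Among the 1686 strongest regions there were regions of 7 collagen genes (4.12%, interval 1.67 to 8.30%), against 8.04% of all genes. Among the 5000 strongest there were regions of 28 (16.5%, interval 11.2 to 22.9%), against 20.7%. Any pooled candidate reached 105 collagen genes (61.8%, interval 54.0 to 69.1%), against 65.7%. Each of these 4 intervals includes the share over all genes, so at these 4 lengths the shares could not be told apart from the background. The share was also computed at other lengths of the pooled list, and at some the share over all genes lay just above the interval. It was 2.30% at 470 regions (upper limit 2.15%) and 7.92% at 1650 (7.52%). At 3247 regions it was 14.2% (14.1%), and at 3576 it was 15.6% (14.8%). At the remaining lengths it lay inside the interval, so the reading depends on the length chosen. The best pooled rank of the 105 genes had a median of 9311 (quartiles 4897 and 16767), against 9084.5 (3794.75 and 16657.5) for the 13136 protein-coding genes with a candidate.

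**Figure D1:**
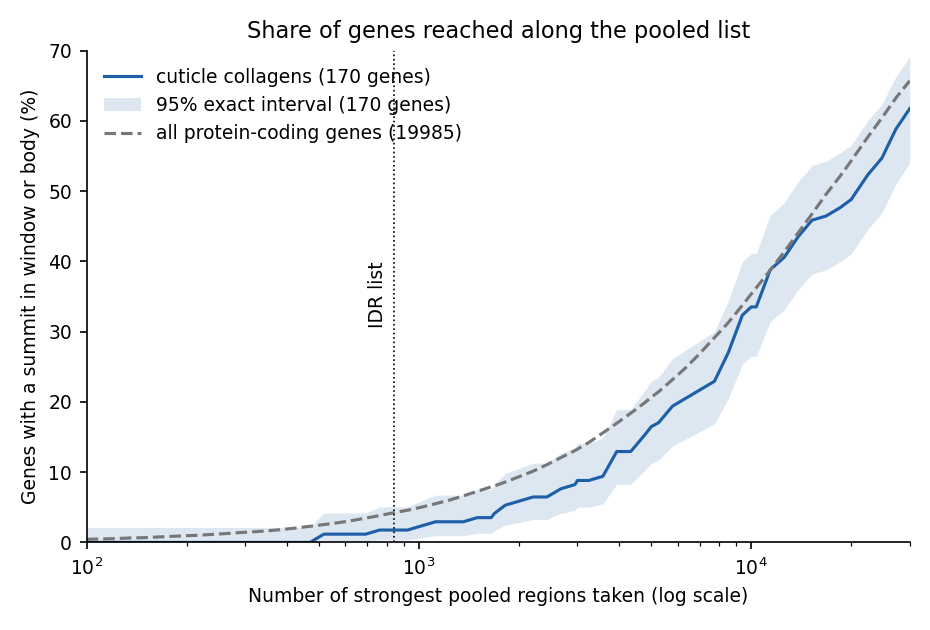
Share of genes (y axis, percent) with a summit in the window or body as more of the pooled list is taken, strongest first (x axis, number of regions, log scale), for the 170 cuticle collagen genes (solid line, with the exact 95% interval shaded) and all 19985 protein-coding genes (dashed line). At the length of the IDR list the lines stand at 1.76% and 4.25%, and at 30000 regions they stand at 61.8% and 65.7%.

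Of the 15 collagen genes with the strongest pooled regions, col-88, col-154 and col-175 held the letters AAGTGAAA, the core of the sequence known to be bound by BLMP-1 and PRDM1, within 50 bp of the summit. Their regions are shown for that reason, beside the region of col-2, which held the other sequence searched, GAGAGA. Each line gives 101 bp centred on the pooled summit, on the strand of the gene and on build ce11 (WBcel235), from chrIII:40730-40830 (plus strand), chrV:11385160-11385260 (plus), chrX:9235484-9235584 (minus) and chrIV:10085866-10085966 (minus). Capitals mark AAGTGAAA in the first 3, where TTTCACTT is the same core read on the opposite strand, and the run of overlapping GAGAGA in the last.
col-88: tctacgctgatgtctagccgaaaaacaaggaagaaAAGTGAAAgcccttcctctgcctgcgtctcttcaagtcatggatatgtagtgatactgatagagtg
col-154: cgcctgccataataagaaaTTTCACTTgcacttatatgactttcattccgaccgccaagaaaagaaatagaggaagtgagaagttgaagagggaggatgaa
col-175: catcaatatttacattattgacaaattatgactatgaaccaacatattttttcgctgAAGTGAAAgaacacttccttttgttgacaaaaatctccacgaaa
col-2: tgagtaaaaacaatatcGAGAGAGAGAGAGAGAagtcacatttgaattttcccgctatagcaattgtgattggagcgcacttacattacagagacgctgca

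col-88 was the 1 collagen gene with an IDR peak in its span that no other protein-coding gene shared. The summit lay at -283, and the core lay 8 bp from the summit. Its signal was 48.8 in the pooled list (rank 762), 26.3 in replicate 1 (rank 1137) and 18.2 in replicate 2 (rank 1398). The best regions of both replicates overlapped by 248 bp, yet in neither did col-88 reach the 843 strongest. col-154, outside the IDR list, also had the core near an upstream summit, but on the opposite strand and in a region shared with F55C10.4. Its summit lay at -150 with the core 24 bp away, and its signal was 36.5 in the pooled list (rank 1392), 27.2 in replicate 1 (rank 1054) and 17.8 in replicate 2 (rank 1473). These were the only 2 collagen genes within the 1686 strongest regions of each replicate, which is 1.18% of the 170, against 3.81% of all genes. col-175 had its summit at -916 with the core 7 bp away and a pooled rank of 1794, but its ranks of 3470 in replicate 1 and 20582 in replicate 2 belonged to regions that did not overlap.

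The strongest region at any collagen gene was the one shared by col-46 and col-47, which overlap on opposite strands of chromosome I. Its signal was 62.0 in the pooled list (rank 477), 22.7 in replicate 1 (rank 1752) and 29.0 in replicate 2 (rank 398). The summit lay in an exon of col-46, at 1613 from its start, and at -288 from the start of col-47, the nearest start of any protein-coding gene. Neither AAGTGAAA nor GAGAGA lay within 50 bp of it. The peak cannot be assigned to one of the genes from its position.

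The next collagen genes in order of pooled signal were outside the IDR list. col-172 had a signal of 42.0 in the pooled list (rank 1018) at -862, with rank 1330 in replicate 1 and rank 10821 in replicate 2. It was the collagen gene just outside the IDR list, as col-88 was the one just inside. col-2, a collagen gene known from dauer larvae, had a signal of 40.9 in the pooled list (rank 1069) with rank 616 in replicate 1 and no candidate in replicate 2. Its summit at -465 was nearer to the start of ndc-80, at 221 bp, than to its own. dpy-14 had its summit in an intron at 287, with a pooled signal of 34.0 (rank 1663), rank 991 in replicate 1 and rank 2255 in replicate 2. The best regions of dpy-14 in the 2 replicates did not overlap.

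Of the 105 best regions, 4 (3.81%, interval 1.05 to 9.47%) had a tRNA gene within 200 bp of the summit as the nearest small RNA gene, against 1.13% over all genes with a candidate, a share inside that interval. The summit of col-185 (pooled rank 1846, at -859) lay 14 bp from one, with rank 4451 in replicate 1 and rank 4777 in replicate 2. The others were col-85, col-72 and col-99, and col-99, included here by its symbol, is known to encode a transmembrane collagen.

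The nearest start was the gene's own for 78 of the 105 genes (74.3%, interval 64.8 to 82.3%), against 69.5% of all genes with a candidate. For col-139 (rank 2194) the nearest start was that of F41F3.9, 111 bp from the summit. Of the 105 best regions, 67 (63.8%) also lay in the window or body of another protein-coding gene, against 49.0% over all genes with a candidate. Pairs of collagen genes that shared their best region were col-46 with col-47, col-20 with col-73, col-159 with col-160, and col-117 with col-3, so the 105 genes had 101 distinct regions.

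At several collagen genes the strong peak lay just outside the span searched. sqt-3, which encodes a collagen needed for embryonic and larval body shape, was the clearest case. Within its span the best region had a signal of 29.0 in the pooled list (rank 2605), 19.8 in replicate 1 (rank 2744) and 9.49 in replicate 2 (rank 8916), with the summit at -467. Yet sqt-3 lay between a pair of IDR peaks, and its start was the nearest start to both. The upstream one, at -3190, had a pooled signal of 67.8 (rank 394), and the overlapping regions ranked 230 in replicate 1 and 1815 in replicate 2. The downstream one, at 1679 and 104 bp past the gene's end, had a pooled signal of 48.6 (rank 772), with ranks 1230 and 3256 in replicates 1 and 2.

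dpy-17, a collagen known to act with sqt-3 in body shape, had the same kind of peak behind it. An IDR summit lay at 1402, 240 bp past its end, with a pooled signal of 59.4 (rank 513) and ranks 477 and 730 in replicates 1 and 2, both within the 843 strongest. The nearest start to this summit was that of sax-2, at 969 bp. The best region within the span of dpy-17 had a pooled signal of 22.9 (rank 5597). col-165 had an IDR summit 373 bp past its end (pooled signal 49.4, rank 737; ranks 4966 and 781 in replicates 1 and 2), and its start was the nearest. col-97 had an IDR peak at -2069, the strongest within 5000 bp of a collagen gene whose nearest start was that of the collagen gene, with a pooled signal of 90.8 (rank 205) and ranks 200 and 252 in replicates 1 and 2. That summit lay within the neighbouring gene ZK1010.8, and GAGAGA lay within 50 bp of it.

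The summits at sqt-3 and dpy-17 are shown because neither search sequence occurs in them, so no letters are in capitals. They come from chrV:12349505-12349605 (upstream of sqt-3), chrV:12354374-12354474 (past its end) and chrIII:5108682-5108782 (past the end of dpy-17), all on the plus strand, which is the strand of both genes.
sqt-3 upstream: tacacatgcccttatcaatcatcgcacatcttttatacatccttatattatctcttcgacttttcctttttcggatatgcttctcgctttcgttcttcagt
sqt-3 past the end: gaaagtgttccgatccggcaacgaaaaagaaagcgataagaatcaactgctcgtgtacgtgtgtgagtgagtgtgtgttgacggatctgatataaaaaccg
dpy-17 past the end: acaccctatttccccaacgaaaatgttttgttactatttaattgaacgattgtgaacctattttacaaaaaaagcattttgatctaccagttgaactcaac

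**Figure D2:**
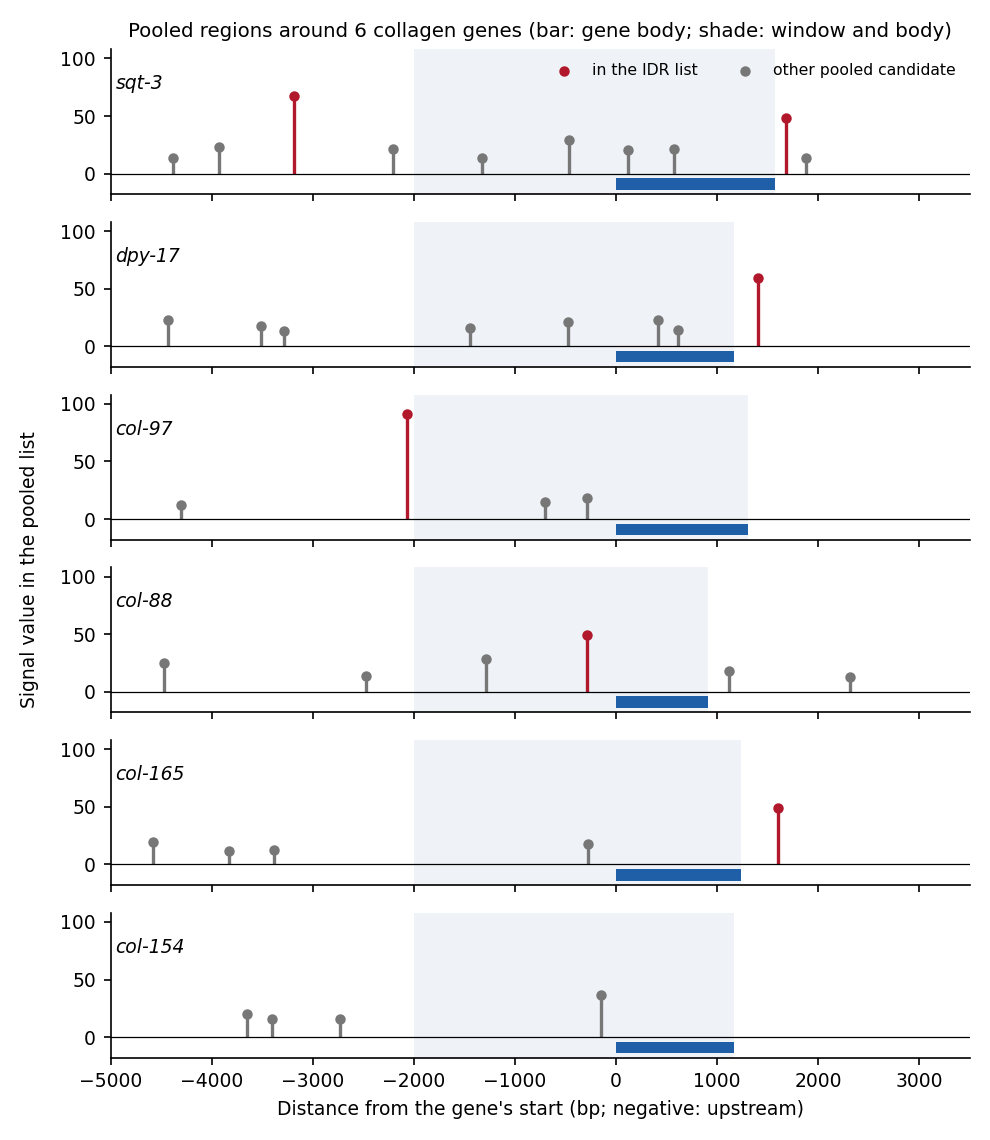
Pooled regions around 6 collagen genes, one panel per gene: signal value in the pooled list (y axis, score) against the distance of the summit from the gene's start (x axis, bp), with IDR peaks in red, other candidates in grey, the gene body as a blue bar and the span searched shaded. The IDR peaks of sqt-3, dpy-17, col-97 and col-165 stand outside the shade, that of col-88 stands inside it, and the single region of col-154 inside the shade, with a signal of 36.5, is below the IDR list.

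These peaks did not raise the collagen genes above other genes. When the span was extended 500 bp past each gene's end, a choice made after the data were seen, an IDR summit reached 6 of 170 collagen genes (3.53%), against 4.63% of all genes. The nearest IDR summit lay within 5000 bp of the start for 12 of 170 collagen genes (7.06%), against 7.61% of nuclear protein-coding genes, and the median distance was 46369.5 bp, against 51826 bp. Several of the peaks within 5000 bp stood close to the start of another gene. The one at -4838 from col-103 (rank 60) was 68 bp from the start of F56B3.2, and the one at -4598 from col-2 (rank 87) was 172 bp from that of ttr-39.

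The 14 genes named for mutants, which shape the body and cuticle of larvae and adults, had no IDR summit in their spans. A count of 0 of 14 allows a share of up to 21.4% by a floor of 3 counts, and up to 23.2% by the exact interval. The share over all protein-coding genes, 4.25%, is within both limits, so the count does not set these genes apart. Of the 14, 10 had a pooled candidate (71.4%), against 95 of 156 numbered col genes (60.9%) and 65.7% of all genes. The median best ranks were 8025.5 for the 14, 9373 for the numbered col genes and 9084.5 for all genes. After dpy-14 and sqt-3 came sqt-2, with a pooled rank of 3657, ranks of 17926 and 1327 in replicates 1 and 2, and a summit 224 bp from the start of enee-1.

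lon-3, whose loss lengthens the body, had a region at -247 that overlapped in both replicates but was weak, with ranks of 7271 in the pooled list, 7087 in replicate 1 and 22698 in replicate 2. The pooled ranks were 8780 for bli-6, 9250 for bli-1 and 11228 for sqt-1. They were 24241 for dpy-4 and 24882 for rol-6, which in a dominant mutant form twists the body. bli-1 and bli-2 encode collagens of the struts of the adult cuticle; bli-2 had no pooled candidate, nor had dpy-5, dpy-13 and rol-8. Each of these 4 had a candidate in 1 replicate alone, at rank 13781 for bli-2 and 4971 for dpy-13 in replicate 2, and at 11546 for dpy-5 and 4670 for rol-8 in replicate 1.

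Within the span searched, the replicates did not place the same collagen genes among their 843 strongest regions. Among the 843 strongest regions of replicate 1 there was 1 collagen gene, col-2 (0.588%, interval 0.0149 to 3.23%), against 4.04% of all genes, which is outside that interval. Among those of replicate 2 there were 3, col-46, col-47 and col-174 (1.76%, interval 0.365 to 5.07%), against 4.21%. No collagen gene was among the 843 strongest of both, against 2.28% of all genes, and 0 of 170 allows a share of up to 1.76% by a floor of 3 counts, and up to 2.15% by the exact interval. The count of 0 depends on the span. With 5000 bp upstream it was 3 of 170 (1.76%, interval 0.365 to 5.07%), against 3.52% of all genes. By region overlap it was 1 of 170 (0.588%), against 2.43%. Without the body and by nearest start alone it stayed at 0. At the 5000 strongest of each, 12 collagen genes were in both (7.06%), against 9.35%. This counts genes and not shared regions. For several of the 12, such as dpy-14, col-54 and col-64, the best regions of the replicates did not overlap, and col-46 and col-47 share a region.

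A candidate of any strength was present in both replicates for 74 of the 170 collagen genes (43.5%, interval 36.0 to 51.3%), against 52.3% of all genes, which is outside that interval. It was present in replicate 1 alone for 26 (15.3%, against 14.1%) and in neither for 22 (12.9%, against 14.7%). In replicate 2 alone it was present for 48 (28.2%, interval 21.6 to 35.6%), against 18.9%, which is also outside the interval. In 21 of the 74 genes (28.4%) the best regions of the 2 replicates overlapped, against 25.4% of all such genes. Across the 74 genes Spearman's rho of the best ranks was 0.243, against 0.346 across 10449 protein-coding genes. These are descriptions across genes of the same 2 libraries.

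Agreement differed from gene to gene. The ranks of col-88, col-154, dpy-14 and the shared region of col-46 and col-47, given above, were within the 5000 strongest of each replicate, while other genes ranked high in 1 replicate had a weak candidate or none in the other. col-174 had rank 717 in replicate 2, with a signal of 22.8, and no candidate in replicate 1. col-178 had rank 1292 in replicate 2 and none in replicate 1. col-91 had rank 950 in replicate 1, against 18133 in replicate 2, and col-68 had 1886 against 19686. col-54 was more even, with ranks 3533 and 3679, but its best regions in the replicates lay at -606 and 534 from the start. In 18 collagen genes no candidate was present in any of the 3 lists.

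**Figure D3:**
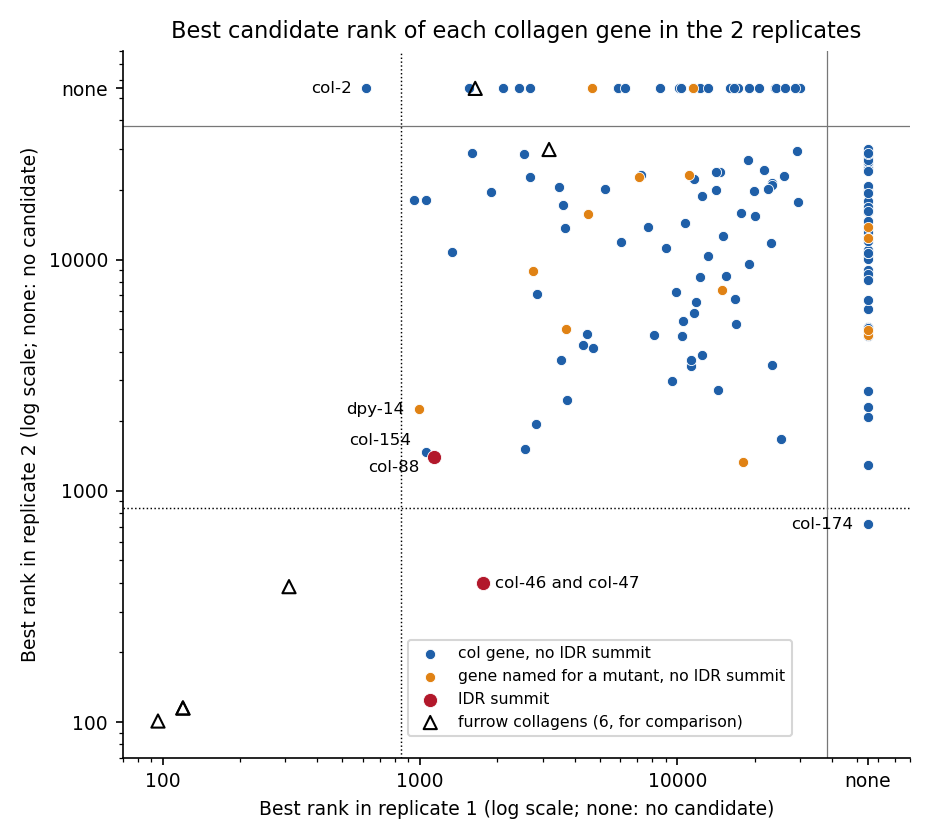
Best candidate rank of each collagen gene in replicate 1 (x axis, log scale) and replicate 2 (y axis, log scale), with genes that lack a candidate set on the lines marked none, and dotted lines at rank 843. No collagen gene lies in the corner under rank 843 in both replicates, where 4 of the 6 furrow collagens (open triangles, with dpy-2 and dpy-10 at the same point) lie. The best regions of dpy-2 and dpy-10 lay at different places in the replicates.

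The position and sequence of the best regions were set beside those of all genes with a candidate, and no test was run. The best pooled summit lay upstream in 84 of 105 genes (80%, interval 71.1 to 87.2%), in an exon in 9 (8.57%) and in an intron in 12 (11.4%). Over all genes with a candidate the shares were 58.0% upstream and 24.6% in introns, with nearly all of the rest in exons. The collagen genes have shorter bodies, as given above, and the part of body length in this difference was not tested. Upstream summits had a median position of -706.5, against -780.

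AAGTGAAA, searched on both strands and wholly within 50 bp of the summit, was present at the best region of 8 of the 105 genes (7.62%, interval 3.35 to 14.5%). The share over all genes with a candidate was 2.61%, which is outside that interval. Besides col-88, col-154 and col-175 these were col-52, col-45, col-181, col-168 and col-130, at pooled ranks from 8360 to 25416, that is, among weak candidates. Among genes with a best rank up to 5000 the core was present in 3 of 28 (10.7%, interval 2.27 to 28.2%), against 5.02%, which is inside that interval. At the best summits of the replicates taken alone the gap was narrower. The core was there for 4 of 100 genes in replicate 1 (4%, interval 1.10 to 9.93%), against 2.59%, and for 5 of 122 in replicate 2 (4.10%, interval 1.34 to 9.31%), against 2.10%. Both of these intervals include the share over all genes.

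GAGAGA, searched in the same way, was present at the best region of 6 of the 105 (5.71%), against 9.02%. These were col-2, col-20, col-73, col-159, col-160 and col-107, and they used 4 distinct regions, none of which held the core as well. One or the other sequence was present for 14 (13.3%), against 11.2%. The median G+C content was 33.7% in the 105 regions and also in those of all genes.

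The promoters themselves were searched too, whether or not a candidate lay there. From 250 bp before to 50 bp after the start, AAGTGAAA was present in 14 of 170 collagen genes (8.24%, interval 4.58 to 13.4%). The share over all genes was 4.65%, which is just inside that interval. GAGAGA was present in 47 (27.6%), against 21.8%. Among those 14 genes, col-154 alone had the core at its best summit. Of the others, 5 had no pooled candidate (bli-2, col-124, col-129, col-151 and col-163), and the rest had pooled ranks from 3703 for col-152 to 24882 for rol-6. From 2000 bp before to 500 bp after the start, AAGTGAAA was present in 62 of 170 collagen genes (36.5%, interval 29.2 to 44.2%). The share over all genes was 28.9%, which is just outside that interval. GAGAGA was present there in 129 (75.9%), against 73.1%. The part of these window shares in the share with the core at the best summits was not tested. The median G+C content of the collagen promoters was 38.2%, against 34.3% over all promoters. The part of base composition in these shares was not tested.

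**Figure D4:**
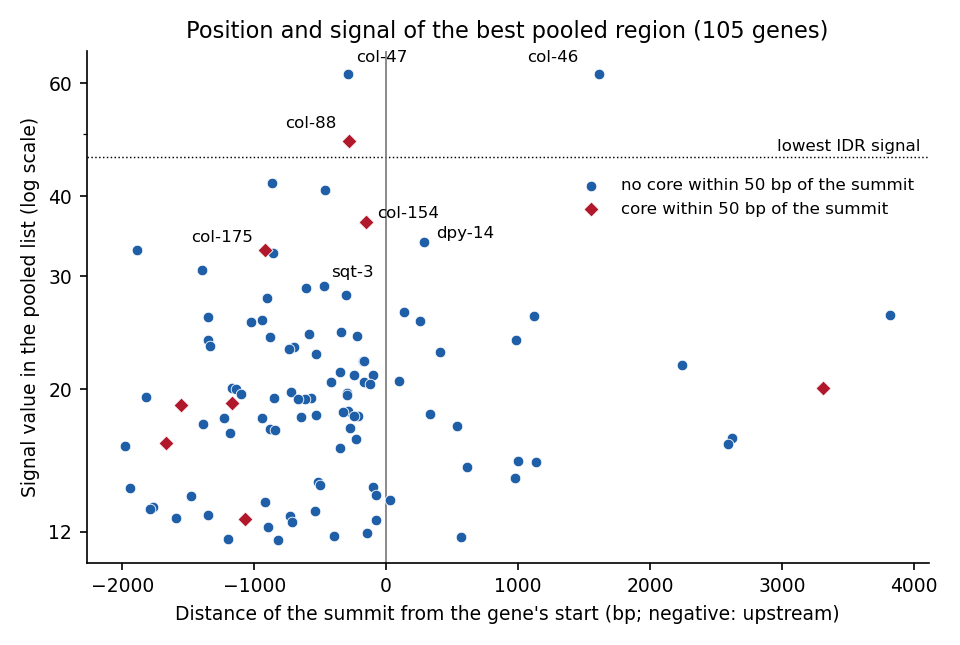
Signal value of the best pooled region (y axis, score, log scale) of the 105 collagen genes with a candidate against the distance of its summit from the gene's start (x axis, bp). Red diamonds mark the 8 regions with the core within 50 bp of the summit, which range from a signal of 48.8 at col-88 down to weak candidates, and 3 points lie above the lowest IDR signal of 46.1 (dotted line).

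The closest genes by product, the 6 furrow collagens, whose products form the annular furrows of the cuticle, held IDR peaks more often. An IDR summit reached 3 of the 170 collagen genes outside that group (1.76%, interval 0.365 to 5.07%), against 4 of the 6 furrow collagens (66.7%, interval 22.3 to 95.7%). dpy-3 had a pooled signal of 127 (rank 109), dpy-10 and dpy-2 shared a region of 107 (rank 150) and dpy-8 had 74.9 (rank 311). dpy-7 ranked 1456 and dpy-9 ranked 4810. The intervals of the shares do not overlap, but the lists were chosen with these results known, so the difference was given no test.

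The share was also higher in a list of genes chosen for the making, trimming and cross-linking of collagen. The list was fixed by symbol, and a role in these steps was not checked for each gene, dpy-20 among them. Of 26 genes on the list, 5 had an IDR summit (19.2%, interval 6.55 to 39.4%), against 4.25% of all protein-coding genes. The difference was given no test for the same reason. All 26 had a pooled candidate, against 65.7% of all genes, with a median best rank of 3527.5, against 9084.5. The span searched includes the whole body, and some of these genes are long. The best pooled summit lay at 12380 in sec-23 and at 7268 in dpy-1. The part of body length in these values was not tested. The strongest was dpy-31, which encodes the protease that trims the C-terminal end of the SQT-3 procollagen, with the pooled rank 53, ranks of 52 and 55 in replicates 1 and 2 and the summit at -656. Next came dpy-20, a BED zinc finger gene (rank 142; 87 and 1816 in replicates 1 and 2), and doxa-1, a maturation factor of the dual oxidase that drives cross-linking (rank 252; no candidate in replicate 1 and 366 in replicate 2). The best summit of dpy-20 in replicate 2 lay at 1523, away from those at 626 in the pooled list and 613 in replicate 1. fkb-5, a peptidyl-prolyl isomerase, ranked 334, and pdi-2, a protein disulfide isomerase that is also a subunit of collagen prolyl hydroxylase, ranked 638. The 3 basement membrane collagens, which are not part of the cuticle, had no IDR summit, and the best of them was let-2, a type IV collagen, at rank 1162.

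**Figure D5:**
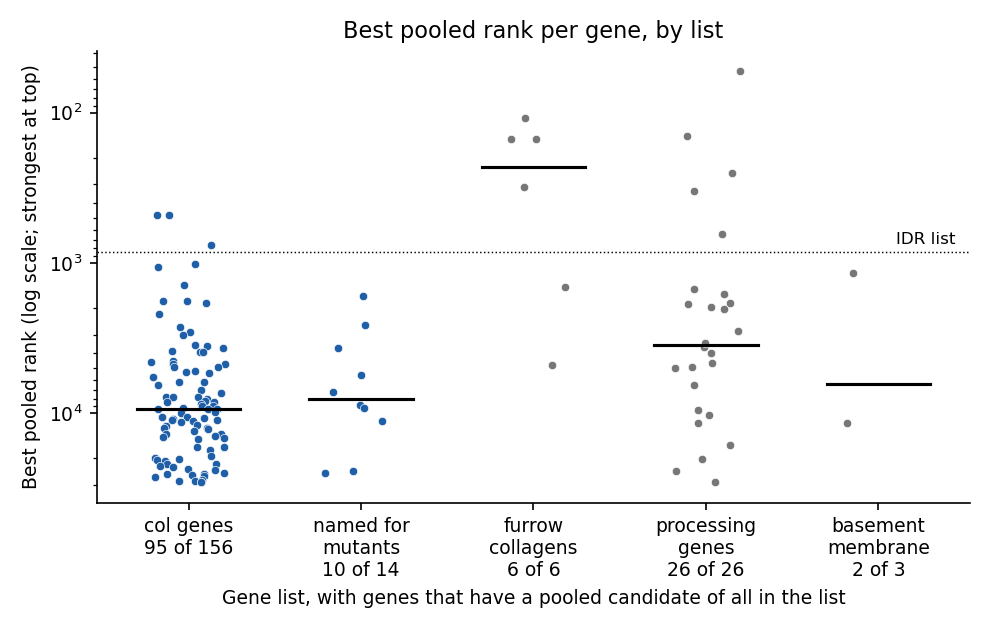
Best pooled rank per gene (y axis, log scale, strongest at the top) for the 95 numbered col genes and 10 mutant-named genes with a candidate (blue), beside furrow collagens, collagen processing genes and basement membrane collagens (grey), with the median of each list as a bar and the limit of the IDR list dotted. The medians are 9373 for col genes, 8025.5 for mutant-named genes, 230.5 for furrow collagens, 3527.5 for processing genes and 6392 for basement membrane collagens.

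By chromosome, the collagen genes with an IDR summit were 2 of 23 on I (8.70%, against 5.66% of all genes there) and 1 of 13 on III (7.69%, against 6.02%). None of the 30 on II, 44 on IV, 33 on V and 27 on X had one, against 3.68%, 3.78%, 2.56% and 4.98% of all genes on those chromosomes.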

How the data were processed

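The deposited files used are narrowPeak lists on build ce11: the authors' optimal IDR list, their pooled candidates, and the candidates of each of 2 replicates. The signal is, per the deposited lists, a score of unstated scale, so genes were compared by rank within a list. The deposited −log10 q value was used in 1 alternative, and the deposited summit offset, another number in bp, gave each summit's position. How reads were aligned and peaks called, and at what IDR threshold, is not given in the sources used here. Lists on ce10 were not used, and no position was converted between builds. Depth is unknown.

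Summits were placed on WBcel235 with the Ensembl release 115 annotation, 1-based, in Python 3.11.15 with pandas 2.3.3, numpy 2.4.6, SciPy 1.17.1 and matplotlib 3.10.9. A gene's rank in a list is that of the strongest region whose summit lay in its window (from 2000 bp before to 500 bp after the start) or body. The assignment was tested on simulated data, where it recovered 200 of 200 planted summits among 19985 genes. Shares carry exact Clopper-Pearson 95% intervals, and no test was run. The symbol rule uses no measured value, but the members and lists were chosen with earlier results of these data known. Named genes were those with an IDR summit, the 15 of best pooled rank, the 5 best in each replicate outside the 843 strongest of the other, those named for mutants, the furrow collagens, and IDR-bound genes of the processing and basement membrane lists; other genes were named after their values were seen. Of 28 processing symbols, 26 were in the annotation. Alternatives covered the window, the way a summit was assigned, list length, ranking, each replicate alone, the overlap between replicates and the distance searched for sequences. Protein sequences were not used here. One named gene's region is not reported here.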

Additional observations from a re-analysis of the deposited data

How the results depend on the processing

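The share of collagen genes with an IDR summit, 1.76%, was 5.29% with a window of 5000 bp upstream (9 genes, against 6.28% of all genes) and 0 with the 421 strongest IDR peaks (against 2.03%). With each replicate's own 843 strongest regions it ranged from 0.588 to 1.76%. Under every alternative run for this share the collagen genes were below the share of all genes. The share with a pooled candidate, 61.8%, was 52.9% with 1000 bp upstream to 200 bp downstream, 76.5% with 5000 bp upstream and 49.4% by nearest start alone, and ranged from 58.8 to 71.8% in the replicates alone. It was at or above the share of all genes in 2 alternatives, without the body (55.9%, against 55.2%) and in replicate 2 (71.8%, against 71.2%). The median best rank, 9311, ranged from 10578.5 to 11502 in the replicates alone, and was below that of all genes in 1 alternative, without the body (9366, against 10566). The share among the strongest regions of both replicates, 0, was 7.06% at the 5000 strongest and 1.18% at the 1686 strongest (against 3.81%). It was 1.76% with 5000 bp upstream (against 3.52%) and 0.588% by region overlap (against 2.43%). The share of best regions with either sequence, 13.3%, was 30.5% within 150 bp of the summit (against 25.1%) and ranged from 9.84 to 12% in the replicates alone; against all genes it was lower in replicate 2 (12 of 122, against 1559 of 14224) and higher in replicate 1 (12 of 100, against 1321 of 13272). Over all alternatives for these 5 results, with those given above included, 32 values stayed within the interval of the value reported and 9 lay outside it. The best rank of a single gene moved by over 1.5 times in 30 of 44 values from a replicate alone and in 7 of 116 values from other alternatives. Settings in which a gene lost its candidate gave no rank and are in neither count. Among these were col-2 in replicate 2, col-174 in replicate 1 and col-46 without the body. sqt-3 had rank 394 with 5000 bp upstream and 772 by region overlap, col-2 had 87 with 5000 bp upstream, and sqt-2 had 19311 without the body. No paired analysis was possible because all samples form 1 group. Peak lists without read counts limit what can be said of weak candidates.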
